A study of Mus musculus with 31 samples.

Results

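The neutrophil-attracting CXC chemokines of the mouse, Cxcl5, Cxcl1, Cxcl2, Cxcl3, Ppbp and Cxcl15, and their receptor Cxcr2 were followed through 3 RNA sequencing experiments on Panc02 cells, a murine pancreatic adenocarcinoma line. These 7 genes were chosen by symbol, as the 6 chemokines of this family and their receptor, whatever their counts, and each had a single entry in each count table. The tables held 55487, 56980 and 56941 gene entries, 60172 different ones in all. In the first experiment, spheroids in Matrigel, a basement membrane gel, were kept in control medium (Ctrl), in medium conditioned by untreated bone marrow macrophages (M0-CM) or in medium conditioned by macrophages treated with IFNγ and LPS (M1-CM), with 3 samples in each group. In the second, WT cells and Cxcl5-/- cells were cultured in 2D or in 3D, again with 3 samples in each of the 4 groups. In the third, called the rescue experiment here, 3D-cultured WT cells (2 samples) and Cxcl5-/- cells (2 samples) were sequenced with Cxcl5-/- cells that overexpressed Hif1a (Hif1aOE Cxcl5-/-, 3 samples) or Myc (MycOE Cxcl5-/-, 3 samples). Cxcl5 had been disrupted with 1 CRISPR guide delivered by lentivirus, and whether the cells were a clone or a pool is not stated. Overexpression came from retroviral vectors placed in Cxcl5-/- cells, the Hif1a vector carrying a stabilized mutant of the mouse gene.

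CXC chemokines that carry a Glu-Leu-Arg motif before the first cysteines are small secreted proteins that draw neutrophils into tissue. They act on Cxcr2, a receptor coupled to inhibitory G proteins that is carried mainly by neutrophils, and their genes are switched on by NF-κB and C/EBP factors downstream of TNF, IL-1, IL-17 and LPS. Their transcripts are short-lived, because AU-rich elements in them are bound by RNA-degrading factors. In carcinomas they are made by the cancer cells as well as by stroma and macrophages.

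The 6 chemokine genes lie on the plus strand of mouse chromosome 5 within 147 kb, in the order Cxcl5, Ppbp, Cxcl3, Cxcl15, Cxcl1 and Cxcl2, with Pf4, a platelet chemokine, between Ppbp and Cxcl3. On GRCm38, with the GENCODE M21 annotation, Cxcl5 spans chr5:90759360-90761624 and Cxcl2, at the far end, chr5:90903871-90905938. Cxcr2 lies elsewhere, at chr1:74153989-74161246. Promoter sequences are shown for the 4 chemokines that come up below for their differences between groups or their low counts, because their matches to the NF-κB letters differ. The stretches before the first annotated exon are chr5:90891095-90891240, chr5:90903749-90903870, chr5:90785951-90786100 and chr5:90794384-90794533, all plus strand, GRCm38.p6, from RefSeq. Capitals mark the NF-κB letters, GGG and CC with any 5 bases between them, on either strand, and matches that overlap run together.
Cxcl1: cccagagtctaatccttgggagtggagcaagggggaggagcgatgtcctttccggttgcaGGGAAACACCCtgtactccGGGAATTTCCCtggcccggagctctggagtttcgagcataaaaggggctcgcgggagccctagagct
Cxcl2: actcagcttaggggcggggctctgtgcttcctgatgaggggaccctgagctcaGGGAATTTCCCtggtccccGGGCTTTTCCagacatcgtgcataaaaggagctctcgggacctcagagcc
Cxcl3: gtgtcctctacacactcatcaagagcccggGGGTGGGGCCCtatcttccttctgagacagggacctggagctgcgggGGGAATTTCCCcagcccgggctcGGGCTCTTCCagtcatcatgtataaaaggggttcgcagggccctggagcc
Cxcl15: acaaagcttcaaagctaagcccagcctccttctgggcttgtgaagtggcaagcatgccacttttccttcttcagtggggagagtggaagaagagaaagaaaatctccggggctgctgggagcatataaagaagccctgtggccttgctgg
No Cxcl5 promoter was among the sequences used, so whether it holds any of the letters below was not examined. The promoters of Cxcl1, Cxcl2 and Cxcl3 shared the letters GGGAATTTCC, which occurred in 29 of 32851 promoters (0.1%) in windows from 250 bases before to 50 after the start of the gene. The NF-κB letters with any bases in the middle occurred in 50.8% of these promoters, and neither form occurred in the promoter of Cxcl15 or Ppbp. The E-box letters CACGTG occurred in the Cxcl3 promoter, at position -155 from the start, and in 7.2% of all promoters. The shorter letters ACGTG, the core of the hypoxia response element, which overlap the E-box, occurred on either strand in the promoters of Cxcl3, Cxcl1 (at -196) and Ppbp (at 33), and in 19.6% of all promoters. The mRNA motif ATTTA, the letters of an AU-rich element, was counted 5 times in the transcripts of Cxcl5, Cxcl1 and Cxcl3, 8 times in Cxcl2, 4 times in Cxcl15, 2 times in Cxcr2 and 1 time in Ppbp, against a median of 2 over 21877 coding genes.

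The total count per sample was 43875429 to 78498230 in the conditioned medium experiment, 46973008 to 72361685 in the 2D and 3D experiment and 41542533 to 64872036 in the rescue experiment. Levels are given as CPM, counts scaled to the TMM-adjusted size of the library, and 3 counts correspond to 0.0381 to 0.0701 CPM. The 3 tables were scaled separately, so levels are compared only within a table. Both WT samples of the rescue experiment stood apart: of 2010 olfactory, vomeronasal and taste receptor genes, which have no known use in these cells, 78.2% and 78.9% had more than 3 counts there, against 7.51% to 31.1% in the other 8 rescue samples. This share was 25.7% to 36.1% in 3D WT, 7.56% to 9.65% in 3D Cxcl5-/-, 1.44% to 2.59% in 2D and 1.89% to 7% in the conditioned medium experiment. The level of these sensory receptor genes is given below beside results of the 3D libraries that rest on few counts. Of the markers of the labelled cell type, Krt8 and Krt18 were abundant in every group, whereas Epcam and Cdh1 were at 0 in most groups and on average at no more than 0.426 CPM in any. Myc was at 490 CPM in MycOE Cxcl5-/- against 21.1 CPM in Cxcl5-/- cells, and Hif1a at 266 CPM in Hif1aOE Cxcl5-/- against 139 CPM. A CRISPR cut can leave the transcript in place, so the Cxcl5 counts do not check the knockout. In bulk RNA, fewer cells of a kind and less RNA per cell cannot be told apart. Cxcl2 and Cxcl3 share a run of 110 identical bases, longer than a sequencing read, so the counts of these paralogs are uncertain by the reads from that run.

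Per kb of exon, Cxcl5 was the most abundant of the 7 genes and Cxcl3 the next in each of the 11 groups. Exon length is the union over all annotated transcripts, 1863 bases for Cxcl5 and 3498 for Cxcl3. Their coding transcripts have 1575 and 1016 bases, so the gap between these genes would be narrower per kb of coding transcript. Within the conditioned medium experiment the mean level of Cxcl5 ranged from 54.2 ± 11 CPM per kb in Ctrl to 366 ± 17.4 CPM per kb with M1-CM (SD, n = 3). It ranged from 14.5 ± 1.16 in 3D WT to 27.2 ± 7.03 CPM per kb in 3D Cxcl5-/- within the 2D and 3D experiment, and from 20.6 ± 1.35 in Cxcl5-/- to 35.4 ± 1.33 CPM per kb in WT within the rescue experiment (n = 2 each). Group means of Cxcl3 were 7.04 to 10.6, 1.14 to 2.66 and 0.911 to 2.28 CPM per kb in the 3 experiments, and its values did not overlap those of Cxcl5 in any group. Ppbp, which encodes a chemokine stored in platelets, had group means of 0.846 to 1.35, 0.388 to 0.650 and 0.323 to 0.646 CPM per kb. Cxcl15, which encodes the lung chemokine lungkine, had group means of 0.482 to 1.19, 0 to 0.376 and 0.0085 to 0.361 CPM per kb and changed its place in the order from group to group. With M1-CM, Ppbp at 1.35 ± 0.295 and Cxcl15 at 1.19 ± 0.335 CPM per kb did not differ beyond their spread. Cxcl1, Cxcl2 and Cxcr2 stayed below 0.34 CPM per kb in all groups.

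**Figure D1:**
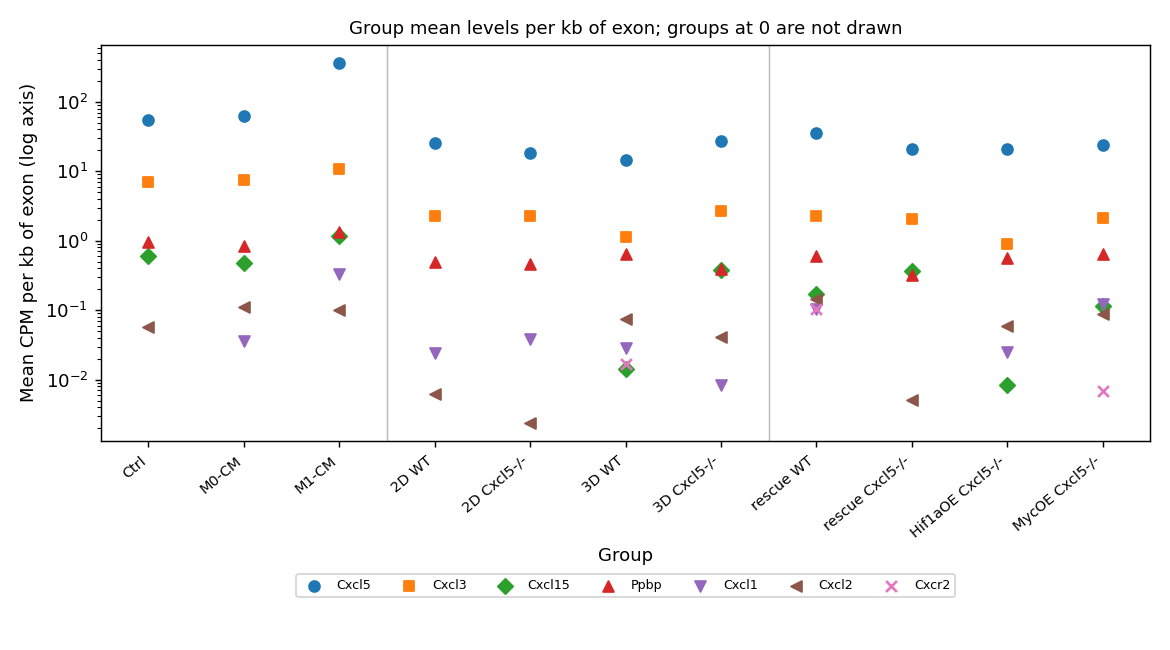
Mean level of each gene in each group, in CPM per kb of exon on a log axis, with grey lines between the 3 experiments, which were scaled separately. Cxcl5 lies highest and Cxcl3 second in every group, and groups in which a gene had 0 counts are not drawn.

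**Figure D2:**
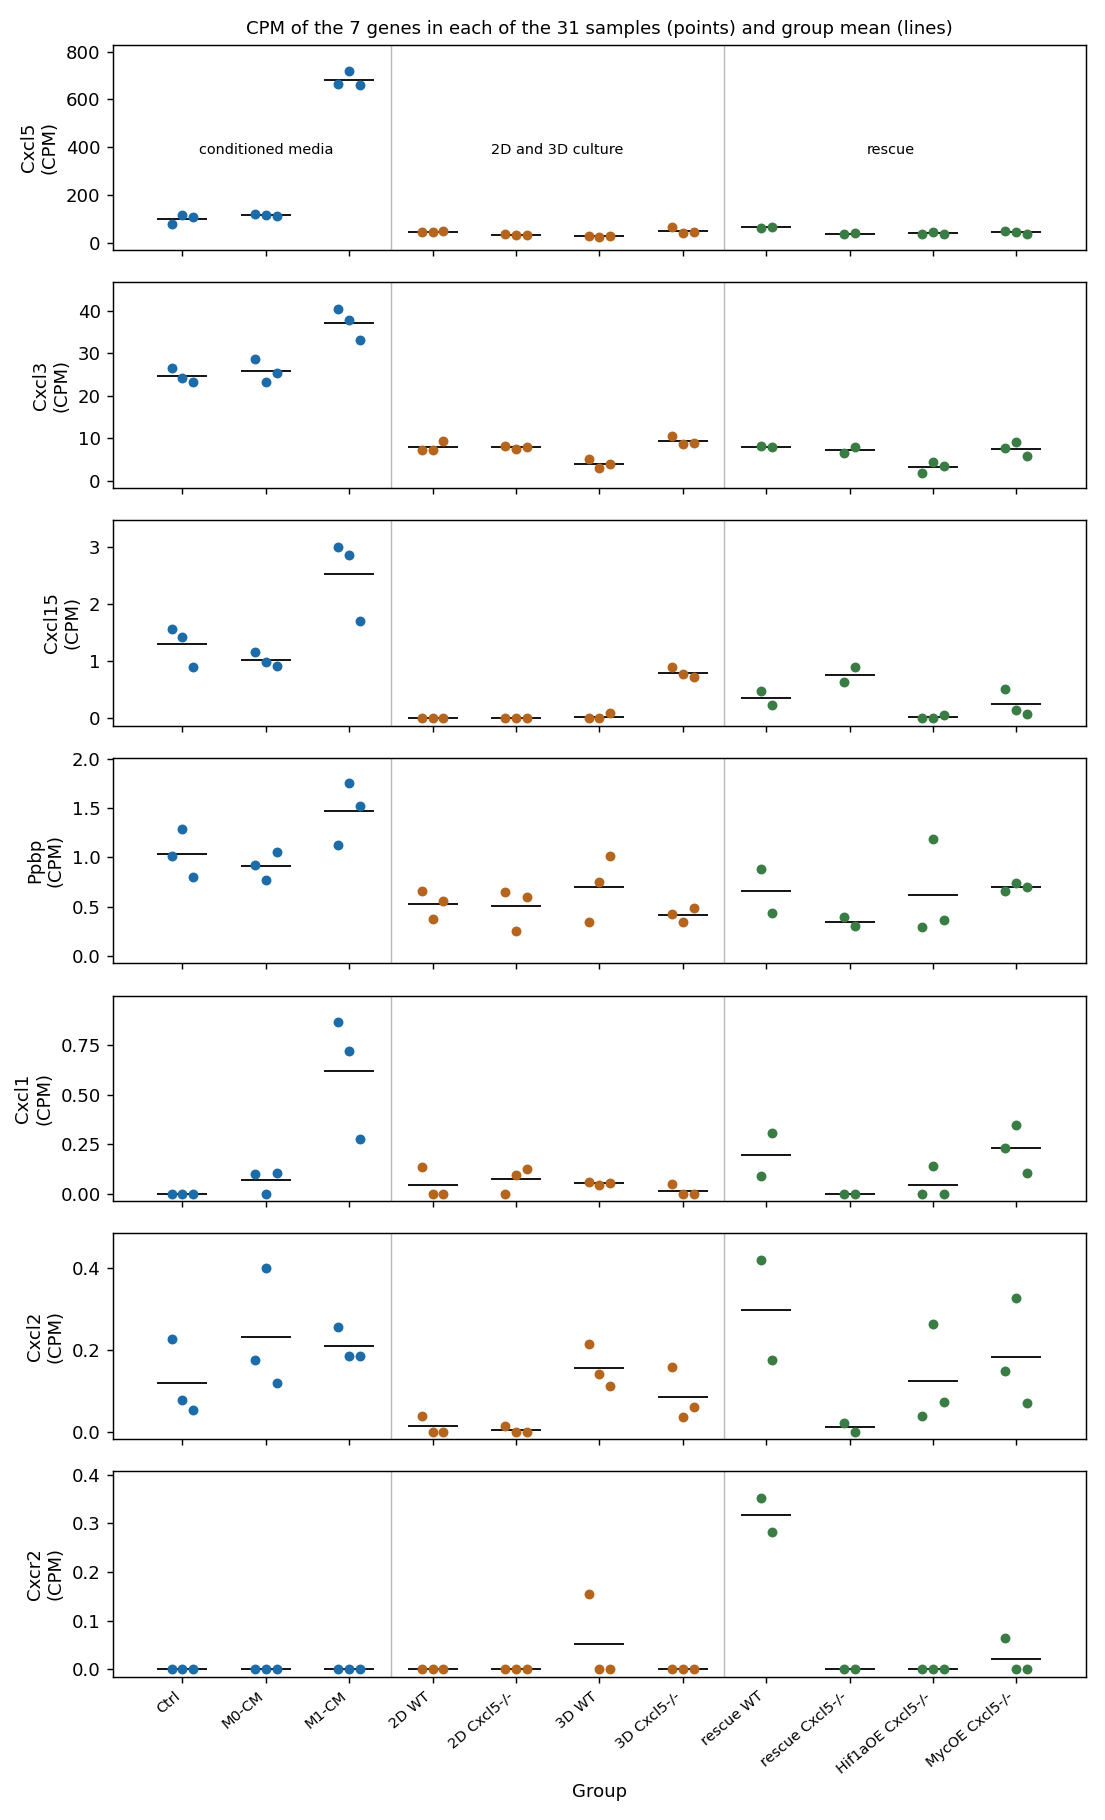
CPM of each of the 7 genes in each of the 31 samples (points) with the group means (lines), on a linear axis for each gene. M1-CM samples lie above Ctrl and M0-CM for Cxcl5 and Cxcl3, 3D Cxcl5-/- samples lie above 3D WT for Cxcl5, Cxcl3 and Cxcl15, and Cxcr2 is at 0 in most samples.

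The conditioned media addressed whether macrophage products alter the chemokines of the cancer cells. Only Cxcl5 was called by edgeR, and it was called against both Ctrl and M0-CM. Cxcl5, the epithelial chemokine also called LIX, had 4835, 9245 and 6158 counts in Ctrl, 8157, 7035 and 6624 counts with M0-CM and 41444, 34894 and 36039 counts with M1-CM. All M1-CM samples lay far above all others, while Ctrl and M0-CM overlapped. By edgeR's quasi-likelihood test, 1 of the 6 members tested was called against Ctrl (Cxcl5, log2 fold change 2.76 ± 0.173 SE, adjusted p = 0.000474), where 0.0156% of all 19207 genes were called. Against M0-CM the same count was 1 of 6, and Cxcl5 rose by 2.55 ± 0.172, adjusted p = 0.000922, against a background of again 0.0156%. In each of these comparisons edgeR called only 3 of all genes. Cxcl5, Cxcl1, Cxcl3 and Cxcl15, 4 of the 6 members, had an unadjusted edgeR p under 0.05 in both. So did 903 of all genes against Ctrl and 498 against M0-CM. Between M0-CM and Ctrl, edgeR called 0 of the 6 members and 0% of all genes, and DESeq2 called 0 members. There 1 member, Cxcl1, had an unadjusted edgeR p under 0.05, as did 569 of all genes.

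Cxcl3, a close relative of Cxcl2, was at 23.3 to 26.5 CPM in Ctrl, 23.3 to 28.8 CPM with M0-CM and 33.2 to 40.6 CPM with M1-CM. Its 3 M1-CM samples were the highest of the 9, but the log2 fold change of 0.60 ± 0.146 against Ctrl had an edgeR adjusted p of 0.673. DESeq2 gave an adjusted p of 0.0473 for the same difference. Cxcl15 had 97, 112 and 52 counts in Ctrl, 80, 59 and 54 with M0-CM and 188, 139 and 93 with M1-CM. In CPM, again all M1-CM samples were above all others, at a log2 fold change of 0.96 ± 0.372 against Ctrl and an edgeR adjusted p of 0.965. Cxcl1, the main neutrophil chemokine of many mouse tissues, had 0 counts in the 3 Ctrl samples, 7, 0 and 6 with M0-CM and 54, 35 and 15 with M1-CM. Its level with M1-CM was at least 13.4-fold higher than 3 counts per Ctrl library would allow, with an adjusted p of 0.673 by edgeR and 0.00292 by DESeq2. Cxcl1 passed edgeR's count filter only through its M1-CM samples, which fixed the direction of its edgeR tests of M1-CM. The 104 counts with M1-CM compared with 2.15 at the level of the sensory receptor genes. The summed level of 11 macrophage markers, nearly all of it from Cd68 and Lyz2, was 5.25 to 8.23 CPM with M1-CM and 7.82 to 15.4 CPM in Ctrl, 5 and 4 of the 11 were above 3 counts, and Adgre1, Itgam and Tyrobp were at 0 in both groups. Single markers went the other way at low levels: Mrc1 was at 0.0735 to 0.160 CPM with M1-CM and at 0 to 0.0522 CPM in Ctrl, and Csf1r at 0.124 to 0.202 and 0 to 0.104 CPM, with no overlap for either. The part of these markers in the chemokine levels was not tested.

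**Figure D3:**
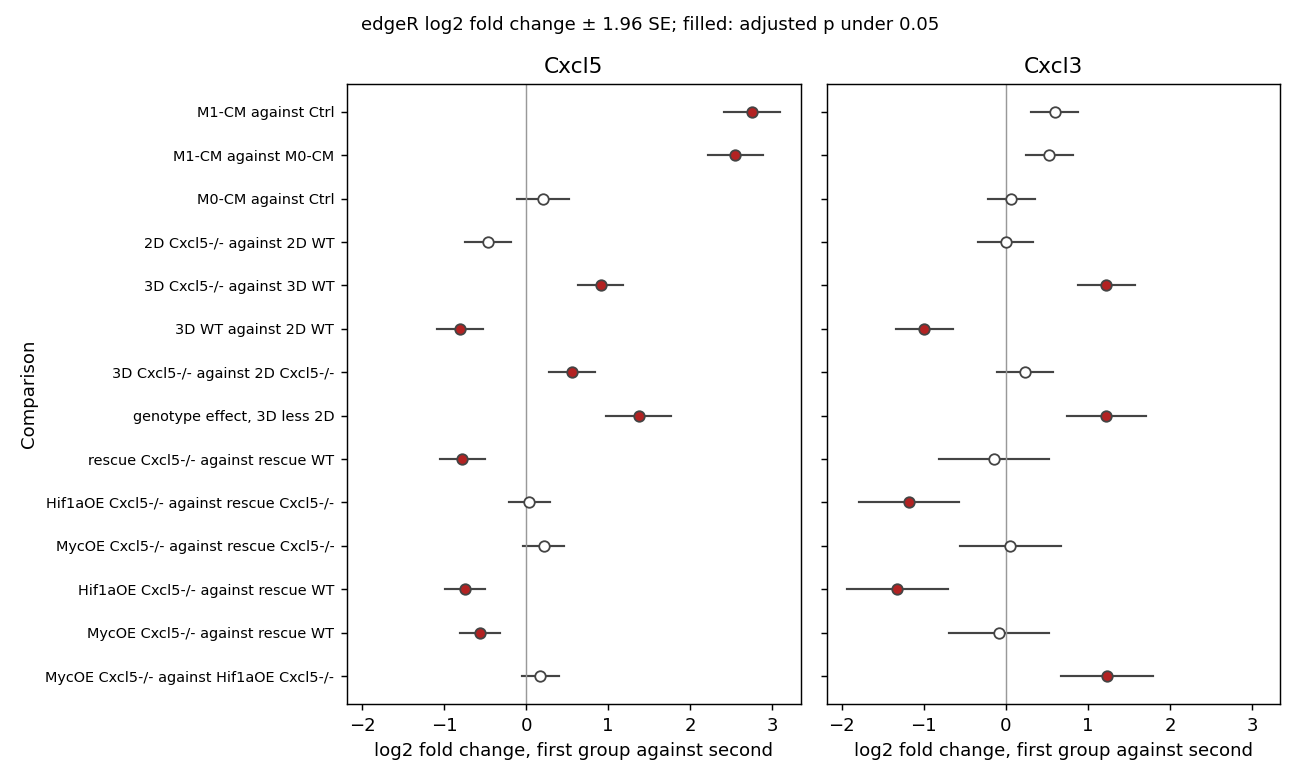
edgeR log2 fold changes of Cxcl5 and Cxcl3 (points) with 95% intervals (lines) in all 14 comparisons, filled where the adjusted p was under 0.05. Cxcl5 is higher with M1-CM and in 3D Cxcl5-/- against 3D WT, and lower in Cxcl5-/- against WT of the rescue experiment.

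The 2D and 3D experiment asked how culture in 3D and loss of Cxcl5 combine. In WT cells Cxcl5 and Cxcl3 were lower in 3D than in 2D, and in 3D the Cxcl5-/- cells had more transcript of Cxcl5, Cxcl3 and Cxcl15 than WT cells. The Cxcl5 transcript was at 45.6, 47.3 and 49.1 CPM in 2D WT, 37.4, 32.7 and 32.8 CPM in 2D Cxcl5-/-, 28.5, 24.5 and 28.0 CPM in 3D WT and 65.5, 40.9 and 45.5 CPM in 3D Cxcl5-/-. The 3D WT samples were the 3 lowest of the 12, and the genotypes did not overlap in either culture. Cxcl3 was at 7.15 to 9.34 CPM in 2D WT, 7.51 to 8.22 CPM in 2D Cxcl5-/-, 4.98, 3.04 and 3.91 CPM in 3D WT and 10.5, 8.55 and 8.82 CPM in 3D Cxcl5-/-. The genotypes overlapped in 2D and were well apart in 3D.

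In 3D, 3 of the 4 members tested were called higher in Cxcl5-/- than in WT by edgeR, where 45% of all 21367 genes were called, 19.7% higher and 25.3% lower. Cxcl15 is among the 3, but it passed the count filter only through its 3D Cxcl5-/- samples. The direction of its test was thus fixed by the filter, and its call adds nothing to the count. The log2 fold changes were 0.91 ± 0.143 for Cxcl5 (adjusted p = 0.000173) and 1.22 ± 0.178 for Cxcl3 (adjusted p = 8.76e-05). Between 3D WT and 2D WT, 2 of the 4 were called lower, Cxcl5 by -0.81 ± 0.143 and Cxcl3 by -0.99 ± 0.177 (edgeR adjusted p = 0.000379 and 0.000423), against 44.3% of genes called and 22% called lower. In 2D, edgeR called 0 of the 4 members between genotypes, against 7.03% of all genes (3.86% higher and 3.17% lower); 1 member, Cxcl5, had an unadjusted p under 0.05 (log2 fold change -0.47 ± 0.141, adjusted p = 0.0705), and DESeq2 called it with an adjusted p of 0.0467. The genotype difference itself differed between 3D and 2D for 2 of the 4 members, by 1.37 ± 0.201 for Cxcl5 and 1.23 ± 0.247 for Cxcl3 (edgeR adjusted p = 0.000267 and 0.00259), where 27.2% of all genes were called. From 2D to 3D, Cxcl5-/- cells gained Cxcl5 transcript (0.56 ± 0.142, edgeR adjusted p = 0.00393) and Cxcl15, 2 of the 4 members, where 57% of genes were called, 28.7% higher and 28.2% lower. The Cxcl15 call here, too, was fixed in direction by the group through which the gene passed the filter. Cxcl3 in that comparison had a log2 fold change of 0.23 ± 0.172 and an edgeR adjusted p of 0.262.

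Cxcl15 had 0 counts in all 6 samples in 2D, 0, 0 and 5 counts in 3D WT and 57, 45 and 47 counts in 3D Cxcl5-/-. Only the 3D Cxcl5-/- samples were clearly above 0, and the 5 counts of the third 3D WT sample compared with 3.29 counts at the sensory receptor gene level of that library, the count a gene of this length would have if it were covered like those genes. The log2 fold change in 3D was 4.53 ± 1.01 (edgeR adjusted p = 0.005), and DESeq2 gave an adjusted p of 0.186. Leaving out 1 sample gave 3.94 to 8.60, the highest without the third 3D WT sample, which left WT at 0 counts, so that this value rests on the prior count of the fit and is no bound. Against the 2D Cxcl5-/- samples Cxcl15 was at least 17.3-fold higher in 3D, relative to 3 counts per library (edgeR adjusted p = 0.000592). The sensory receptor genes ran the other way, being higher in 3D WT than in 3D Cxcl5-/-, and with their level subtracted from every gene the log2 fold change was 5.69 with an adjusted p of 0.000869. Markers of lung epithelium, where this gene is best known, were at 0 to 0.0631 CPM in sum in 3D Cxcl5-/-, with Sftpc at 0. Pf4, which lies between Ppbp and Cxcl3, had 10, 15 and 13 counts in 3D WT and 247, 124 and 128 counts in 3D Cxcl5-/-, a log2 fold change of 3.36 ± 0.54 (edgeR adjusted p = 0.000201). The summed level of 9 epithelial markers was 854 to 1100 CPM in 3D WT and 218 to 238 CPM in 3D Cxcl5-/-, and that of 6 fibroblast markers was 538 to 601 and 994 to 1110 CPM. These sums rest on a few abundant genes, and single markers went both ways: by edgeR, 3 of 6 epithelial markers tested were lower and 1 higher in Cxcl5-/-, at a median of -1.11 on the log2 scale, and 2 of 5 fibroblast markers tested were lower and 2 higher, with a median of -0.60. Of all genes, 25.3% were called lower and 19.7% higher in this comparison, with a median of -0.04. All 9 and 6 of the epithelial markers, and 6 and 5 of the fibroblast markers, were above 3 counts in these groups, with Epcam and Cdh1 at 0 in 3D Cxcl5-/-. The part of these markers in the chemokine differences was not tested.

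**Figure D4:**
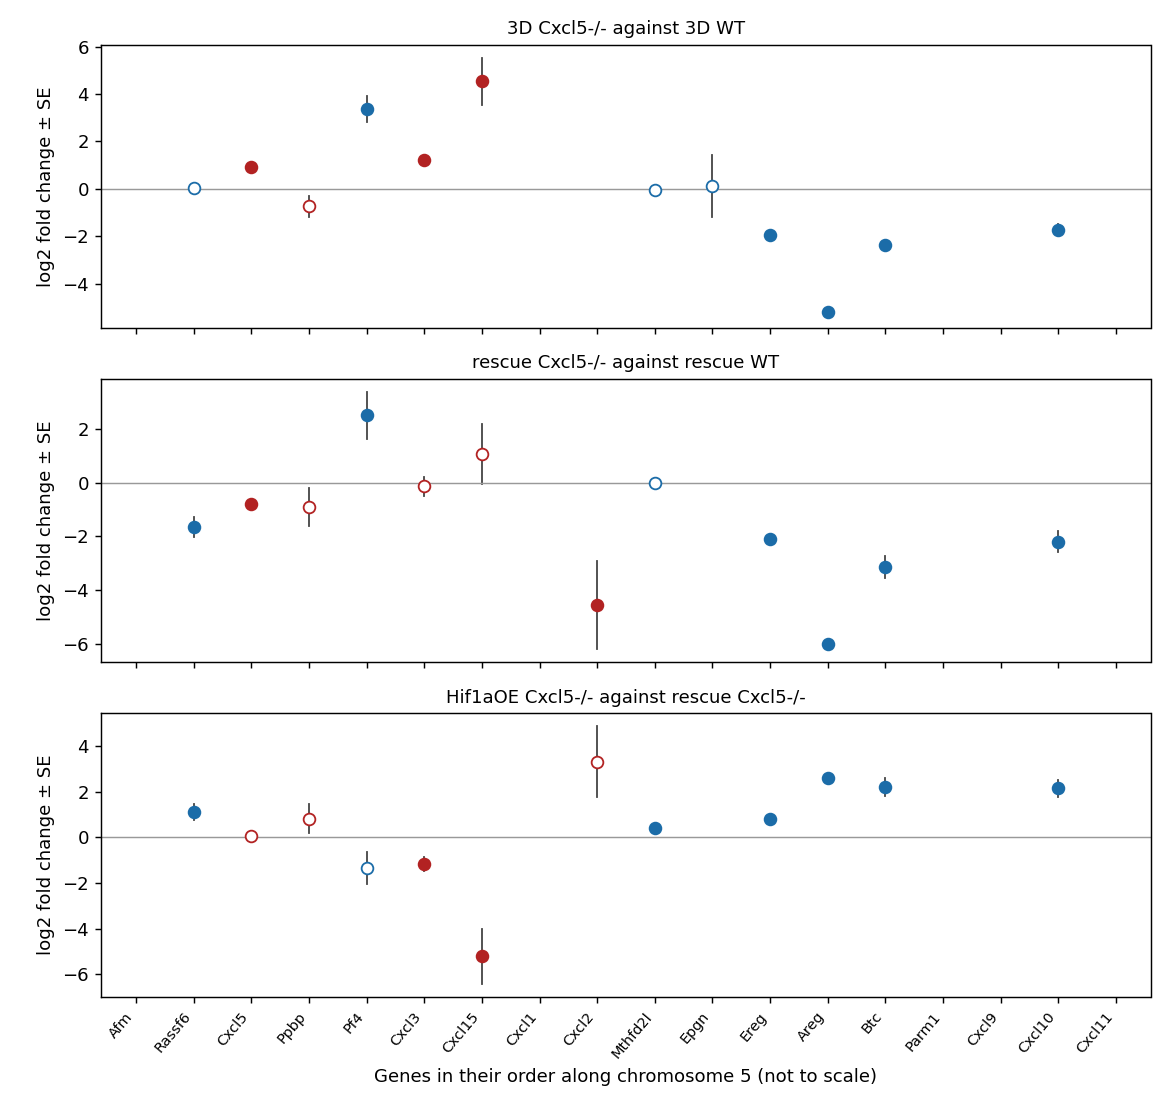
edgeR log2 fold changes with SE of the chemokines (red) and listed neighbours (blue) in their order along chromosome 5, filled where the adjusted p was under 0.05; genes with 0 counts in a whole group or below the count filter are not drawn. Pf4, Cxcl3 and Cxcl15 lie above 0 in 3D Cxcl5-/- against 3D WT, while Ereg, Areg, Btc and Cxcl10 lie below it.

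The rescue experiment compared Cxcl5-/- cells in 3D with WT cells and asked what Hif1a or Myc adds. Here the Cxcl5 transcript was lower in Cxcl5-/- cells than in WT, Hif1a overexpression went with less Cxcl3 and Cxcl15, and Myc overexpression with no member called. Cxcl5 was at 64.2 and 67.7 CPM in WT, 36.6 and 40.2 CPM in Cxcl5-/-, 35.5, 44.8 and 38.2 CPM in Hif1aOE Cxcl5-/- and 49.1, 46.7 and 37.8 CPM in MycOE Cxcl5-/-. Both WT samples were above all 8 samples of Cxcl5-/- cells, and the 3 groups of Cxcl5-/- cells overlapped. The log2 fold change of Cxcl5-/- against WT was -0.78 ± 0.139 (edgeR adjusted p = 0.00107). This is the opposite sign to the 3D cells of the second experiment, and in both experiments no Cxcl5-/- sample overlapped a WT sample. In the rescue experiment the sums of the epithelial and fibroblast markers were 858 to 904 and 237 to 254 CPM in WT, with all 9 and all 6 above 3 counts, against 288 to 303 and 1300 to 1330 CPM in Cxcl5-/-, with 6 and 6 above 3 counts and Epcam at 0. By edgeR 3 of 8 epithelial markers tested were lower and 0 higher in Cxcl5-/- (median log2 fold change -1.72), and 5 of 6 fibroblast markers were higher and 0 lower (median 2.74). Of all genes, 24.3% were called lower and 17.6% higher there, with a median of -0.30. The calls and the median of the fibroblast list thus differed from those of the second experiment, while its sum was higher in Cxcl5-/- in both. The part of these markers in the Cxcl5 result was not tested.

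Between Cxcl5-/- and WT, edgeR called 2 of the 7 members lower, where 41.9% of all 28730 genes were called and 24.3% called lower. The other was Cxcl2, with 1 and 0 counts in Cxcl5-/- and 19 and 8 in WT, described with the sparse members below. The median log2 fold change of all genes in this comparison was -0.30. Hif1aOE Cxcl5-/- against Cxcl5-/- gave 2 of 7 members lower, with 35.5% of genes called, 20.5% higher and 15% lower. Cxcl3 was at 1.75, 4.44 and 3.38 CPM in Hif1aOE Cxcl5-/-, 6.58 and 7.92 CPM in Cxcl5-/- and 5.78 to 9.05 CPM in MycOE Cxcl5-/-. All 3 Hif1aOE samples were below the samples of the other groups. The log2 fold change was -1.18 ± 0.313 (edgeR adjusted p = 0.0117), which without the second Cxcl5-/- sample became -1.03 with an adjusted p of 0.0863. Against MycOE Cxcl5-/-, in which 1 of 7 members was called, Cxcl3 differed by 1.24 ± 0.287 (edgeR adjusted p = 0.0107), against 19.3% of genes called, 9.54% higher and 9.73% lower.

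Cxcl15 had 31 and 44 counts in Cxcl5-/-, 0, 0 and 3 in Hif1aOE Cxcl5-/-, 24, 7 and 4 in MycOE Cxcl5-/- and 22 and 11 in WT. The Cxcl5-/- samples were the highest and the Hif1aOE samples the lowest. The 3 Hif1aOE counts came from 1 sample, without which that group was at 0. The ratio of Cxcl5-/- to Hif1aOE Cxcl5-/- was 42 with an exact counting interval of 13.8 to 208 (edgeR adjusted p = 0.00568). The difference between MycOE and Hif1aOE had an adjusted p of 0.0544 by edgeR and 0.0193 by DESeq2. The level of sensory receptor genes corresponded to 11.1 and 11.3 counts of Cxcl15 in the WT samples and to 1.41 to 3.22 counts in the others. Cxcl15 was 1.08 ± 1.11 higher in Cxcl5-/- than in WT on the log2 scale, with an edgeR adjusted p of 0.451, and 2.40 higher with an adjusted p of 0.221 once that level was subtracted. Pf4 had 92 and 73 counts in Cxcl5-/- and 27 and 0 in WT, a log2 fold change of 2.50 ± 0.877 (edgeR adjusted p = 0.041).

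MycOE Cxcl5-/- against Cxcl5-/- gave 0 of 7 members called by edgeR, with 39.6% of all genes called; 2 members, Cxcl1 and Cxcl2, had an unadjusted p under 0.05, and DESeq2 called 1, Cxcl1. Cxcl5 differed there by 0.21 ± 0.127 (adjusted p = 0.204), and between Hif1aOE Cxcl5-/- and Cxcl5-/- by 0.04 ± 0.127 (adjusted p = 0.851), both by edgeR. The 95% intervals reached from -0.04 to 0.46 and from -0.21 to 0.29. Against WT, Cxcl5 was lower in Hif1aOE Cxcl5-/- (-0.74 ± 0.125, adjusted p = 0.00174) and in MycOE Cxcl5-/- (-0.57 ± 0.125, adjusted p = 0.00571) by edgeR. Cxcl5 was 1 of 4 members called lower in the first comparison, where 24.2% of genes were called and 10.3% called lower, and the only member called in the second, where 31.8% were called, 17.1% higher and 14.7% lower. The others in the first were Cxcl3 (-1.32 ± 0.312, adjusted p = 0.0115), Cxcl15 with a count ratio of 19.7 (6.18 to 100; adjusted p = 0.0322) and Cxcr2 (adjusted p = 0.0452), by edgeR, of which only Cxcl5 and Cxcl3 were called without a count filter. Cxcr2 passed the filter only through the WT samples, which fixed the direction of its test, so its call adds nothing to the count. Its 29 counts in WT compared with 32.1 at the sensory receptor gene level. These comparisons share their WT or Cxcl5-/- samples with the ones above.

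Ppbp was detected in all 31 samples and was called in none of the 14 comparisons. It had 46 to 101 counts in the conditioned medium experiment, 16 to 55 in the 2D and 3D experiment and 15 to 68 in the rescue experiment. The widest group was Hif1aOE Cxcl5-/-, with 15, 68 and 20 counts. Its 60 counts in WT of the rescue experiment compared with 11.4 at the level of the sensory receptor genes. Of the platelet and megakaryocyte markers, 3 to 6 of 7 were above 3 counts in each group of the rescue experiment and the sum was 4.39 to 6.5 CPM.

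Cxcl1 and Cxcl2, which elsewhere rise strongly in inflammation, were sparse. Outside M1-CM, Cxcl1 had at most 16 counts in any sample, and Cxcl2 had at most 24. In 3D, Cxcl2 had 11, 6 and 6 counts in WT and 10, 2 and 4 in Cxcl5-/-, against 2, 0 and 0 in 2D WT and 1, 0 and 0 in 2D Cxcl5-/-. The 3D samples were all above the 2D samples of the same genotype, in CPM, by a count ratio of 15 (3.7 to 131) in WT and 16.7 (2.59 to 700) in Cxcl5-/-, both below the count filter and not tested by edgeR. At the sensory receptor gene level Cxcl2 would have had 7.13 counts over the 3 samples in 3D WT, where it had 23, and 2.78 in 3D Cxcl5-/-, where it had 16. In the rescue experiment Cxcl2 had 19 and 8 counts in WT, 1 and 0 in Cxcl5-/-, 2, 15 and 4 in Hif1aOE Cxcl5-/- and 7, 15 and 4 in MycOE Cxcl5-/-. The count ratio of WT to Cxcl5-/- was 28.8, with an exact counting interval of 4.75 to 1180 (edgeR adjusted p = 0.0463). The 27 counts in WT compared with 21.8 at the sensory receptor gene level, and with that level subtracted Cxcl2 was no longer tested. Without either of the WT or either of the Cxcl5-/- samples the adjusted p was 0.0861 to 0.205. Cxcl1 had 4 and 14 counts in WT, 0 and 0 in Cxcl5-/-, 0, 8 and 0 in Hif1aOE Cxcl5-/- and 11, 16 and 6 in MycOE Cxcl5-/-. Its 18 counts in WT compared with 19.8 at the sensory receptor gene level, and its 33 counts in MycOE Cxcl5-/- with 6.25. In MycOE Cxcl5-/- it was at least 3.72-fold higher than 3 counts per Cxcl5-/- library allow, with an adjusted p of 0.0594 by edgeR and 0.0264 by DESeq2.

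Cxcr2, the receptor of these ligands, was at 0 counts in all 9 samples of the conditioned medium experiment and in 27 of the 31 samples. For a single library, 0 counts allow up to 3 counts, 0.0381 to 0.0701 CPM. These counts measure RNA and give no level of the receptor protein. The authors checked a Cxcr2 knockout of Panc02 cells by flow cytometry, and report that its spheroids grew less than WT spheroids. The exceptions were 8 counts in 1 of the 3 3D WT samples, 3 counts in 1 MycOE Cxcl5-/- sample and 16 and 13 counts in the WT samples of the rescue experiment.

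At the sensory receptor gene level Cxcr2 would have had 15.9 and 16.2 counts in those WT samples, so its counts there were at the level of genes with no known use in these cells. Cxcr2 was at least 5.16-fold higher in WT than in Cxcl5-/- relative to 3 counts per library, with an edgeR adjusted p of 0.0562, and at least 5.76-fold higher than in Hif1aOE Cxcl5-/-, with an adjusted p of 0.0452. Cxcr2 had passed the count filter only through those WT samples, which fixed the direction of these tests. Once the sensory receptor gene level was subtracted Cxcr2 was below the filter and not tested. Of 10 neutrophil markers, 9 were above 3 counts in WT, summing to 1.26 to 1.61 CPM with Camp at 0. In the other rescue groups 1 or 2 of 10 were, at 0.0784 to 0.926 CPM, with Ly6g, S100a9 and Camp at 0. Of the sensory receptor genes, 78.2% and 78.9% were above 3 counts in the WT samples and 7.51% to 31.1% in the other rescue samples. The part of the neutrophil markers in the Cxcr2 result was not tested. Cxcr1, the other neutrophil receptor, was at 0 in all groups of the first 2 experiments. In the rescue experiment it was at 0 in Cxcl5-/- and Hif1aOE Cxcl5-/-, but not in WT or MycOE Cxcl5-/-.

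**Figure D5:**
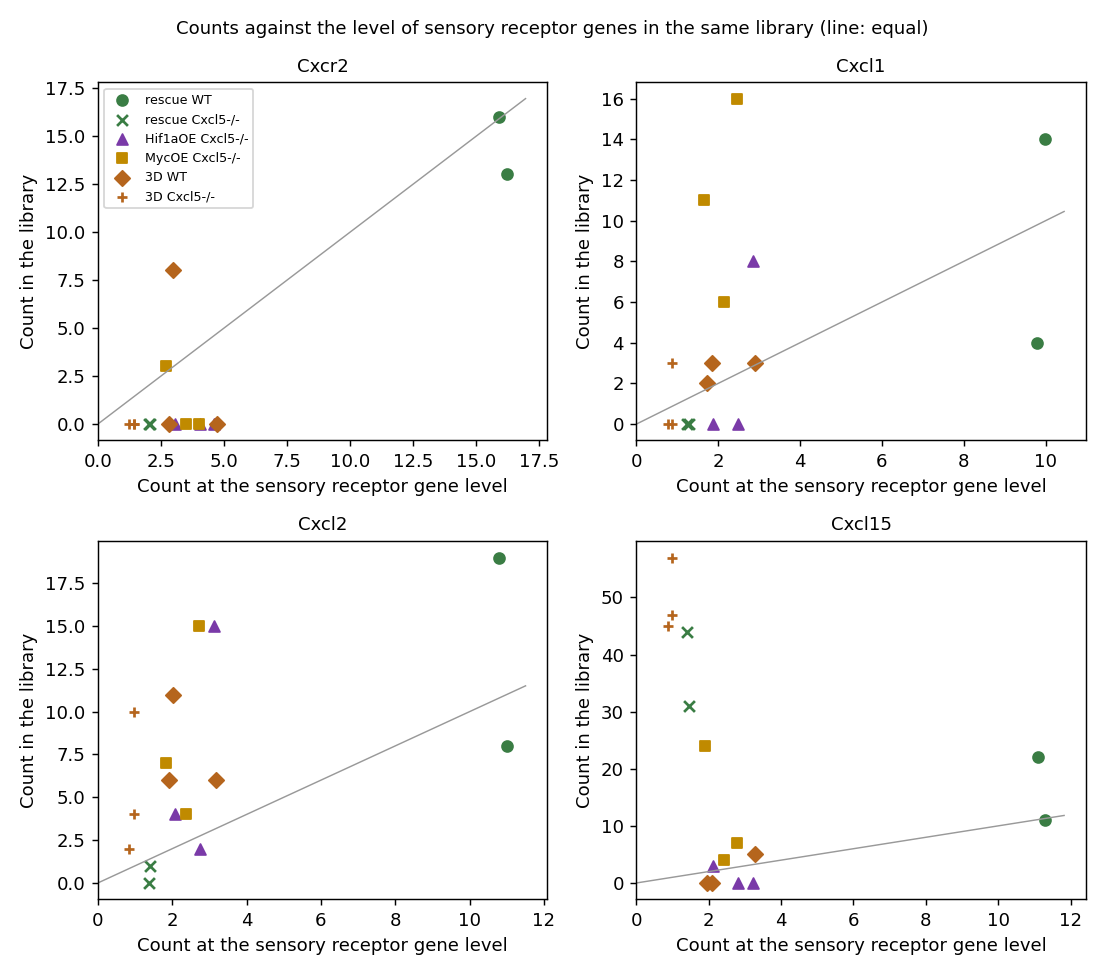
Counts of Cxcr2, Cxcl1, Cxcl2 and Cxcl15 in each 3D library of the second and rescue experiments (vertical axis) against the count that a gene of the same exon length would have at the level of the sensory receptor genes in that library (horizontal axis), with a line of equal values. The WT libraries of the rescue experiment lie near the line for Cxcr2, and the 3D Cxcl5-/- libraries lie far above it for Cxcl15.

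Of 18 genes on the receptor side, Cxcr1, Cxcr2, Ackr1 and the G proteins, kinases and arrestins that relay or end the signal, edgeR called 0 of 11 tested in both M1-CM comparisons, with 1 at an unadjusted p under 0.05 in each and 0 called by DESeq2. Of all 19207 genes edgeR called 0.0156% in each, and 903 against Ctrl and 498 against M0-CM had an unadjusted p under 0.05. In 3D Cxcl5-/- against 3D WT, 9 of 11 were called lower and 0 higher, with a median log2 fold change of -0.65 against -0.04 for all genes, of which 45% were called and 25.3% called lower. The largest falls were in Gng2, a G protein subunit (-1.85 ± 0.677, adjusted p = 0.0393), and Rac1, a GTPase of cell movement (-0.82 ± 0.088, adjusted p = 6.03e-06). In the rescue experiment 8 of 16 were called lower and 1 higher in Cxcl5-/- against WT, with a median of -0.93 against -0.30 for all genes, of which 41.9% were called and 24.3% called lower. There the leading falls were Prkcb and Pik3cg, at 0 in Cxcl5-/- and at 0.645 and 0.483 CPM in WT, and Plcb3, a phospholipase, rose (0.24 ± 0.085, adjusted p = 0.0408). More of the 18 genes were tested in the rescue experiment (16) than in the first 2 (11), and Cxcr2 only through its counts in WT. Genes that pass the filter through WT alone are bound to look lower in Cxcl5-/-, which tilts the count and the median. In those WT samples the sensory receptor genes had 5.21 and 5.33 counts per kb of exon, against 0.662 to 1.51 in the other rescue samples, and the part of that level in the falls of sparse genes was not tested. With Hif1aOE, 8 of 16 were higher and 2 lower than in Cxcl5-/-, where 20.5% and 15% of all genes were, led by Prkcb and by Grk6, a receptor kinase, at 1.43 ± 0.11 (adjusted p = 2.94e-06), with Gnb1 at -0.80 ± 0.075 (adjusted p = 1.16e-05) and Plcb3 at -0.39 ± 0.077 (adjusted p = 0.00209) the lower ones. The gain of Prkcb was from 0 to 0.0971 CPM.

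Of 19 genes that induce or restrain these chemokines, all were tested in every comparison. With M1-CM against Ctrl their median log2 fold change was 0.43, against 0.02 for all genes, but edgeR called 0 of 19, with 7 at an unadjusted p under 0.05 and 2 called by DESeq2. Of all 19207 genes edgeR called 0.0156% in that comparison, and 903 had an unadjusted p under 0.05. In WT cells 9 of 19 were higher and 1 lower in 3D than in 2D, where 22.2% and 22% of all genes were, while Cxcl5 and Cxcl3 were lower. The largest rises were in Tnfaip3, a brake on NF-κB (1.76 ± 0.113, adjusted p = 3.93e-08), and Nfkbiz, an NF-κB cofactor (1.65 ± 0.096, adjusted p = 1.67e-08), and Il17ra, the IL-17 receptor, fell (-0.92 ± 0.091, adjusted p = 2.46e-06). In 3D Cxcl5-/- against 3D WT, 9 of 19 were lower and 2 higher, where 25.3% and 19.7% of all genes were, while Cxcl5 and Cxcl3 were higher. Il1rap, the IL-1 receptor accessory chain (-2.82 ± 0.182, adjusted p = 5.71e-08), and Nfkbia, the NF-κB inhibitor (-1.41 ± 0.132, adjusted p = 1.69e-06), fell most, and Il17rc and Tlr4 rose by 0.37 ± 0.081 and 0.36 ± 0.118 (adjusted p = 0.00222 and 0.0228). The rescue experiment gave 7 of 19 lower and 5 higher in Cxcl5-/- against WT, where 24.3% and 17.6% of all genes were, and a median of 0.03 against -0.30 for all genes, with Il1rap at -1.55 ± 0.211 (adjusted p = 0.000161) and Nfkbia at -1.48 ± 0.091 (adjusted p = 5.9e-07). Zfp36, which encodes an AU-rich element-binding decay factor, rose there by 0.84 ± 0.239 (adjusted p = 0.0167), and Zc3h12a, an RNase, by 0.52 ± 0.187 (adjusted p = 0.0458). Hif1aOE against Cxcl5-/- gave 8 of 19 higher and 3 lower, where 20.5% and 15% of all genes were, with Cebpb at 1.06 ± 0.126 (adjusted p = 5.6e-05), Il1rap at 0.98 ± 0.195 (adjusted p = 0.0021), Il1r1 at -1.10 ± 0.125 (adjusted p = 4.25e-05) and Zc3h12a at -0.57 ± 0.168 (adjusted p = 0.0206). MycOE against Cxcl5-/- gave 5 higher and 4 lower, where 21.6% and 18% of all genes were. These p-values are from edgeR.

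Among 12 neighbours on chromosome 5, edgeR called 0 of 8 tested in both M1-CM comparisons, with 2 and 3 at an unadjusted p under 0.05 and 0 called by DESeq2. Of all 19207 genes edgeR called 0.0156% in each, and 903 against Ctrl and 498 against M0-CM had an unadjusted p under 0.05. In 3D Cxcl5-/- against 3D WT, 4 of 8 were lower and Pf4 alone was higher, where 25.3% and 19.7% of all genes were. Areg and Btc, ligands of the EGF receptor, fell most, at -5.18 ± 0.146 and -2.35 ± 0.197 (edgeR adjusted p = 5.85e-11 and 5.88e-07). Areg had 2850, 2557 and 2908 counts in 3D WT and 112, 98 and 78 in 3D Cxcl5-/-. In the rescue experiment, 7 of 11 were lower and Pf4 alone was higher in Cxcl5-/- against WT, where 24.3% and 17.6% of all genes were. Parm1 and Cxcl11 led the falls, at 0 counts in Cxcl5-/- and 0.603 and 0.503 CPM in WT. The sensory receptor genes were at 5.21 and 5.33 counts per kb of exon in those WT samples and at 0.662 and 0.684 in Cxcl5-/-, and the part of that level in these falls was not tested. More of the 12 neighbours were tested in the rescue experiment (11) than in the first 2 (8). Any that passed the filter through WT alone were bound to look lower in Cxcl5-/-. With Hif1aOE 7 of 11 were higher and 0 lower than in Cxcl5-/-, where 20.5% and 15% of all genes were, led by Cxcl11, from 0 to 0.128 CPM, and Areg (2.61 ± 0.17, adjusted p = 1.01e-06). MycOE gave 3 of 11 higher and 1 lower, where 21.6% and 18% of all genes were.

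Over all 31 samples, with log2 CPM centred on each table's mean, the genes most like Cxcl5 among 13041 were Bbln (r = 0.89), Slc11a2 (0.61), Pals2 (0.59), Nek6 (0.57) and Cebpd (0.56). Within the tables, r with Bbln was 0.96, 0.46 and 0.91 over 9, 12 and 10 samples, whereas r with Cebpd, a C/EBP factor, was 0.91, -0.01 and -0.56. The most unlike were Gm12992 (-0.67), Gm45428 (-0.66) and Styx (-0.65). The genes most like Cxcl3 were Megf10 (0.81), Mcts2, Nwd1, Mmp2 and Gm10125, those most like Cxcl15 were Gramd1b (0.86), Pcdhb18, Tmem132b, 4930545L23Rik and Pcdhb9, and those most like Ppbp were Gm15444 (0.61), mt-Co2, Gm28661, Gm26244 and mt-Atp8. Among the members, r of Cxcl5 with Cxcl3 was 0.90, 0.83 and 0.56 in the 3 tables. These samples fall into a few groups that share culture, genotype and depth, so the values describe the tables only.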

How the data were processed

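According to the methods, the authors aligned paired reads of stranded total RNA to GRCm38 (mm10 in the labels) with HISAT2, quantified genes with StringTie and compared groups with DESeq2. The values they deposited are counts per gene, not normalized. The annotation release and the conversion to counts are not given in the sources used here. Groups follow the condition named in each label. The cell line label of the 10 rescue samples runs on from sample to sample, and Panc02 is the line named in the methods. The methods speak of biological replicates for the experiments in general, but the labels do not say whether the sequenced replicates were separate cultures, so p-values may measure only the spread between these samples, which may be technical.

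From the deposited counts, CPM and tests were computed with edgeR 4.0.16 (quasi-likelihood F test, TMM, R 4.3.3). Genes passed edgeR's filter on low counts (minimum 10, total 15), each table was fitted whole, p-values were adjusted by Benjamini-Hochberg across the genes of a table, and an adjusted p under 0.05 was a call. SE is the size of the log2 fold change over the square root of F, and intervals are normal at 95%. A member below the filter is given by its counts. A fold against a group at 0 is a bound from 3 counts per library. Count ratios have exact binomial intervals at 95%, for counting error only. Genes were compared in pattern on log2 CPM (prior count 2), among those averaging at least 1 CPM in each table.

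The members, lists, tests and naming rule were chosen with earlier results of these data known. The rule named all members, the genes most like and unlike them, and in each list the 2 called genes with the largest change either way; not every list gene it allows is named. The sensory receptor gene level, added after seeing the data, is the count of 2010 to 2014 such genes per kb of exon (GENCODE M21). Other settings tried were DESeq2 1.42.0, its size factors, library totals, no filter, a minimum of 10 counts in all samples, a fit to the compared groups alone, a replicate block, each sample left out, and entries of a symbol summed. The scripts' tests were first tested on simulated data. Promoters come from RefSeq and matched 6 of the 7 members, all but Cxcl5.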

Additional observations from a re-analysis of the deposited data

Results flagged for a closer look

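The difference between Cxcl5-/- and WT cells was not the same in 3D as in 2D for Cxcl5 and Cxcl3. The interaction was 1.37 for Cxcl5 and 1.23 for Cxcl3 on the log2 scale (edgeR adjusted p = 0.000267 and 0.00259), and leaving out each of the 12 samples in turn gave 1.09 to 1.52 and 1.02 to 1.38. The Cxcl15 interaction could not be estimated, because all 6 samples in 2D were at 0 counts.

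The Cxcl5 transcript in 3D went opposite ways with the knockout in the 2 experiments that hold both genotypes. The log2 fold change was 0.91 in the 2D and 3D experiment, with 3 of 3 Cxcl5-/- samples above all WT samples, and -0.78 in the rescue experiment, with 2 of 2 Cxcl5-/- samples below both WT samples. This difference was not tested, since the tables were processed apart. With the sensory receptor gene level subtracted the values were 0.92 and -0.98.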

How the results depend on the processing

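Leaving out each sample in turn kept the count of members called in the 3 conditioned medium comparisons, in 3D against 2D of either genotype, in 3D Cxcl5-/- against 3D WT, in the interaction and in MycOE Cxcl5-/- against WT. It gave 0 to 1 in 2D Cxcl5-/- against 2D WT, 1 to 4 in rescue Cxcl5-/- against WT, 1 to 2 in Hif1aOE and 0 to 1 in MycOE Cxcl5-/- against Cxcl5-/-, 2 to 4 in Hif1aOE Cxcl5-/- against WT and 1 to 2 in MycOE against Hif1aOE.

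The shares of all genes called that are given above belong to the main edgeR fit. They are no background for the counts under the other settings or with a sample left out. DESeq2 called 3 members in M1-CM against Ctrl (Cxcl5, Cxcl1 and Cxcl3), 1 in 2D Cxcl5-/- against 2D WT, 1 in MycOE Cxcl5-/- against Cxcl5-/- and 2 in MycOE against Hif1aOE (Cxcl3 and Cxcl15). It also called Cxcl1 beside Cxcl5 and Cxcl2 in rescue Cxcl5-/- against WT (adjusted p = 0.0435), called Cxcl2 in 3D against 2D of either genotype, and did not call Cxcl15 in 3D Cxcl5-/- against 3D WT (adjusted p = 0.186) or Cxcr2 in Hif1aOE Cxcl5-/- against WT (adjusted p = 0.114). In 2D Cxcl5-/- against 2D WT, 1 member, Cxcl5, was also called with library totals, with at least 10 counts in every sample, with only the groups compared and with the replicate block. With at least 10 counts in every sample, the count was 1 in 3D against 2D Cxcl5-/-, 1 in rescue Cxcl5-/- against WT, 1 in Hif1aOE Cxcl5-/- against Cxcl5-/- and 2 in Hif1aOE Cxcl5-/- against WT, since sparse members were no longer tested. Without a filter, with the replicate block and with the sensory receptor gene level subtracted, 1 member was called in rescue Cxcl5-/- against WT and 2 in Hif1aOE Cxcl5-/- against WT; the members kept were Cxcl5, and Cxcl5 with Cxcl3. With only the groups compared, edgeR called 1, Cxcl1, in MycOE Cxcl5-/- against Cxcl5-/-, called Cxcr2 (adjusted p = 0.00201) in place of Cxcl2 in rescue Cxcl5-/- against WT, and did not call Cxcl15 in Hif1aOE Cxcl5-/- against WT (adjusted p = 0.0595). The cause of these changes was otherwise not tested.

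Differences near 0 changed sign. Cxcl3 in 2D Cxcl5-/- against 2D WT was 0.012 with DESeq2, 0.007 with its size factors, 0.017 with library totals, 0.003 with at least 10 counts, 0.004 with only the groups compared, 0.015 with the level subtracted, and -0.057 to 0.157 with a sample left out. Cxcl5 in Hif1aOE Cxcl5-/- against Cxcl5-/- was -0.004 with DESeq2 size factors, -0.19 with library totals, -0.027 with at least 10 counts and -0.054 to 0.119 with a sample left out. In MycOE Cxcl5-/- against Cxcl5-/-, library totals gave -0.128 for Cxcl5 and -0.289 for Cxcl3, and Cxcl3 was -0.017 with at least 10 counts and -0.09 to 0.213 with a sample left out. With a sample left out Cxcl3 was -0.244 to 0.074 in MycOE Cxcl5-/- against WT and -0.017 to 0.137 in M0-CM against Ctrl.

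The labels do not say whether replicate numbers pair the samples. The correlation of same-numbered deviations was -0.236 to 0.359 over 9 pairs, -0.096 to 0.18 over 18 and -0.025 to 0.05 over 13. Differently numbered samples were not compared, so these values cannot decide whether the samples are paired. The replicate block moved the counts as above. Depth limits Cxcr2, Cxcl1 and Cxcl2, whose counts were often at or under 3 per library.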
